A study of Mus musculus with 19 samples.

Results

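The anaphase-promoting complex, or cyclosome, is represented here by 10 Anapc genes out of the 14173 genes measured in single mouse blastocysts. They are the Anapc genes listed in the deposited table, split by the size of the protein into 5 small subunits (Anapc10, Anapc11, Anapc13, Anapc15 and Anapc16, of 74 to 185 residues in the annotation) and 5 large ones (Anapc1, Anapc2, Anapc4, Anapc5 and Anapc7, of 565 to 1944 residues). The genes and their split were chosen by their measured log2 differences between the genotypes compared here, which had gone in opposite directions, so these differences are given as a description, and counts of members past a threshold are printed without being read as a test. Polyadenylated RNA was read from 19 blastocysts, 1 library each: 9 carry the genotype label Padi6-mutant and 10 the label Control. The mutant embryos came from oocytes with the P620A allele of Padi6, and only embryos that had passed an early cleavage block could reach the stage sampled. The allele of the Control embryos, the strain, the embryo age and the litter are not given in the sources used here, so the tests below treat each embryo as independent, which shared litters would break and so lower the p-values. PADI6 is stored in the egg as part of the subcortical maternal complex.

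The anaphase-promoting complex is a ubiquitin ligase that marks cyclins, securin and other proteins for destruction, which lets sister chromatids part and cells leave mitosis. A cullin subunit and a RING finger subunit form its catalytic centre, scaffold and repeat-rich subunits form its frame, and the coactivators Cdc20 and Fzr1 bring substrates to it. Its small subunits mostly steady the frame or help to bind substrates and coactivators. Cleaving embryos depend on it in every mitosis.

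All values are log2(scaled count + 1), with each library scaled by the authors to a common upper quartile. Padi6 itself ranged from 3.81 to 9.24 in the Control libraries and from 2.00 to 9.27 in the mutant ones, which does not check the labels, since the allele changes a residue and is not read by a transcript level. The number of listed genes at 0 was 117 ± 76.2 in Control (SD, n = 10) and 312 ± 191 in mutant libraries (SD, n = 9; exact two-sided permutation p = 0.00890, the same after adjustment over 2 library measures), and 4 mutant libraries had over 400. In the mutant libraries short transcripts were shifted up against long ones: Spearman's rho across genes between transcript length and a library's deviation from the gene means was 0.17 ± 0.18 in Control and -0.25 ± 0.12 in mutant libraries (exact two-sided permutation p = 1.30e-04, adjusted 2.60e-04). This length shift moves with the comparison of small and large subunits and is given beside it below. Of the marker genes, 5 of 6 for inner cell mass, 4 of 5 for primitive endoderm and 6 of 7 for trophectoderm were listed. No fibroblast gene of 7 and only Star and Amhr2 of 8 cumulus and granulosa genes were. Genes detected in fewer than 9 libraries are missing from the list, so markers of foreign cells in a few embryos could be absent from it. Listing therefore describes the series as a whole and cannot exclude such cells in single embryos. The summed scaled counts of inner cell mass markers ranged from 23566 to 55327 in Control and from 11853 to 34538 in mutant embryos, those of primitive endoderm markers from 9137 to 38128 and from 8555 to 13372, and those of trophectoderm markers from 212120 to 396670 and from 102920 to 473780. Of the primitive endoderm markers 3 of 4 were lower in the mutants (Sox17 at -3.37, Pdgfra at -2.51 and Gata6 at -0.59, limma adjusted p = 0.0393, 0.0282 and 0.0233), while Gata4 differed by -3.05 without passing (limma adjusted p = 0.0642). Of the inner cell mass markers 1 of 5, Pou5f1, was lower, at -1.26 (limma adjusted p = 0.00158), and no trophectoderm marker passed. Beside these counts, 12% of all genes were lower and 14.6% higher at a limma adjusted p under 0.05. In whole embryos, fewer cells of a type and less RNA per cell cannot be told apart, and the part of cell composition in the values below was not tested.

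Each of the 5 small subunits had a higher mean level in Padi6-mutant blastocysts, by 0.68 to 2.92 on the log2 scale, and each of the 5 large ones a lower mean level, by 0.23 to 0.85. Among them 9 of 10 passed an adjusted p of 0.05 in limma, which 26.6% of all genes did, and nothing is read from that count because this contrast chose the genes. All 5 small ones passed in the higher direction (14.6% of all genes) and 4 of the 5 large ones, Anapc4 being the exception, in the lower direction (12% of all genes). Without the 4 mutant libraries with over 400 genes at 0, 3 small (Anapc10, Anapc11 and Anapc13) and 3 large ones (Anapc2, Anapc5 and Anapc7) passed, as 11.9% of all genes did in the higher and 6.64% in the lower direction. No member was at 0 in any library. The 9 mutant embryos lay above the Control median for every small subunit, and below it for Anapc2, Anapc5 and Anapc7.

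Anapc13, a small subunit that steadies the repeat-rich frame, was measured at 7.37 in the lowest, 8.29 in the median and 8.92 in the highest Control embryo, and at 10.57, 11.03 and 11.84 in the mutant ones. The groups did not overlap, with 1.65 between the highest Control and the lowest mutant embryo, and it was the only member of which this was true (2.67% of all genes were separated in that direction). The mutant mean was higher by 2.92 (SE 0.23), which is 7.55-fold.

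Anapc11, the RING finger subunit that receives the ubiquitin-loaded enzyme, ran from 8.98 through a median of 9.74 to 11.17 in Control and from 11.17 through 11.56 to 11.80 in mutant embryos. The highest Control embryo equalled the lowest mutant one, and the other 8 mutant embryos lay above all Controls. The difference was 1.61 (SE 0.27), or 3.05-fold. The mutant embryos were also much alike in this transcript, with an SD of 0.19 against 0.84 in Control.

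Anapc10, which joins the coactivator in recognising substrates, ran from 11.31 through 12.56 to 14.13 in Control and from 13.53 through 14.18 to 15.51 in mutant embryos. The groups overlapped through 2 Control embryos, numbers 5 and 9, that lay above the lowest mutant one. The difference was 1.63 (SE 0.31), or 3.09-fold. Of the 14 subunit transcripts it had the highest mean per embryo in the mutants.

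Anapc16, which sits on the repeat-rich frame, ran from 8.74 through 10.01 to 11.21 in Control and from 10.35 through 10.99 to 12.27 in mutant embryos, a difference of 0.89 (SE 0.29). Only 1 mutant embryo, number 6, lay above all Controls. Anapc15, which helps the complex to shed the checkpoint inhibitor, ran from 8.55 through 9.32 to 10.34 in Control and from 9.46 through 10.09 to 10.49 in mutant embryos. Its difference of 0.68 (SE 0.23) was the smallest of the small subunits. With the length trends described below taken off it was -0.45, -0.83 or 0.83. The values -0.45 and -0.83 take the same transcript for each gene and differ in the genes fitted, while 0.83 takes the longest transcript. Without 1 library the deposited difference lay between 0.58 and 0.78. The count of small subunits past the threshold fell to 4 without Control 1, 2, 3, 8 or 10, or mutant 2, 3, 4 or 6. In these fits 1811 to 2023 of 14173 genes passed in the higher direction, against 2068 with all libraries.

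**Figure D1:**
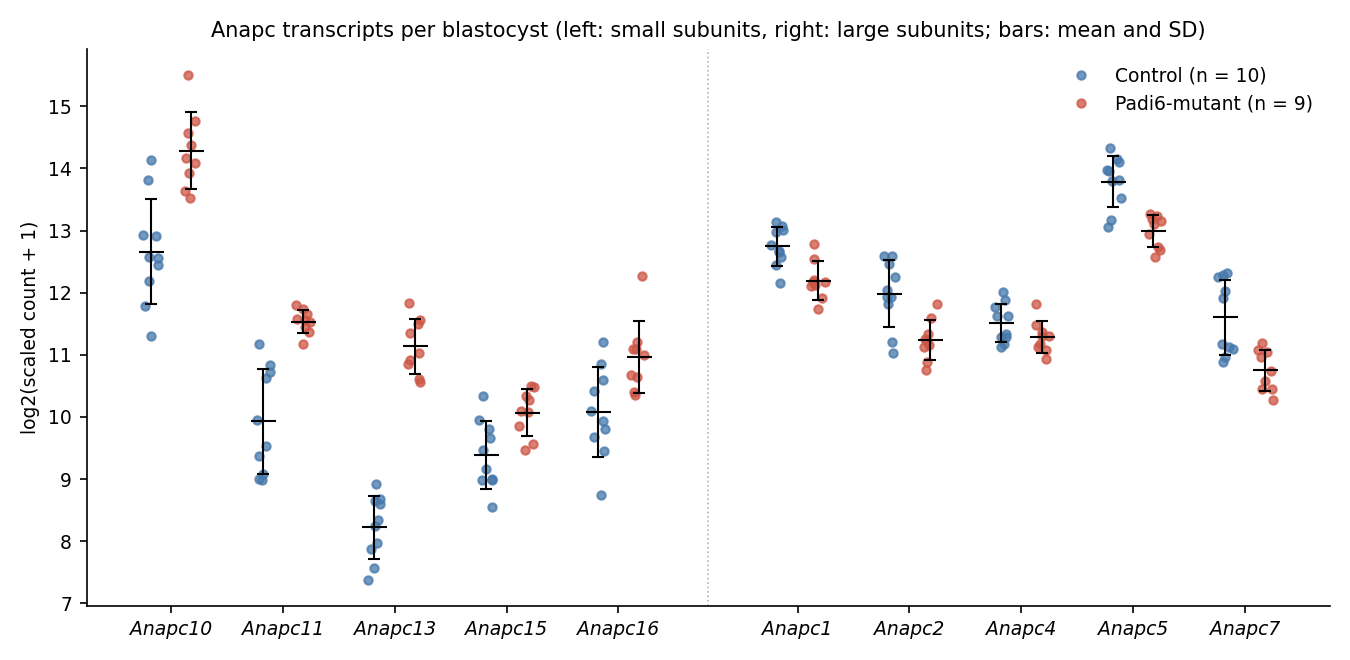
Level of each of the 10 transcripts in each blastocyst, as log2(scaled count + 1); points are embryos (10 Control, 9 Padi6-mutant) and bars the mean and SD. The Anapc13 groups are separate, from 7.37 to 8.92 and from 10.57 to 11.84, while the other 9 transcripts overlap or touch. The Anapc15 difference turns to -0.45 with the length and GC trend removed but stays at 0.83 with a trend on the longest transcripts.

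The large subunits had smaller differences except against Anapc15, and the groups overlapped for all of them (0.289% of all genes were separated in the lower direction). Anapc5, a platform subunit, ran from 13.07 through 13.89 to 14.32 in Control and from 12.58 through 13.11 to 13.26 in mutant embryos, with a difference of -0.80 (SE 0.17). Anapc7, a subunit of the repeat-rich frame, ran from 10.89 through 11.55 to 12.31 and from 10.27 through 10.74 to 11.19, with a difference of -0.85 (SE 0.22). In both, no mutant embryo reached the Control median.

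Anapc2, the cullin that carries the RING finger subunit, ran from 11.03 through 11.99 to 12.59 in Control and from 10.76 through 11.22 to 11.82 in mutant embryos, a difference of -0.74 (SE 0.20). Anapc1, the largest subunit and main scaffold, ran from 12.15 through 12.72 to 13.13 and from 11.73 through 12.17 to 12.78, a difference of -0.55 (SE 0.15). Anapc4, another platform subunit, ran from 11.12 through 11.47 to 12.01 and from 10.93 through 11.30 to 11.82, a difference of only -0.23 (SE 0.15). Its mutant values covered most of the Control range, with 8 of 10 Control embryos below the highest mutant one.

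The catalytic pair differed in opposite directions, and the levels came closer together. In each embryo the log2 level of Anapc11 minus that of Anapc2 was -2.06 ± 1.24 in Control (SD, n = 10, from -3.59 to 0.14) and 0.30 ± 0.41 in mutant embryos (SD, n = 9, from -0.65 to 0.89). The groups overlapped in that measure through the upper Controls. Anapc13 minus Anapc2 did not overlap, at -3.76 ± 1.01 in Control and -0.10 ± 0.66 in mutant embryos. These are changes in a difference of levels not corrected for transcript length, so they say nothing of how many molecules of each there were.

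The other 4 core subunits in the table were not part of the choice, but the same contrast tests them. Only Cdc23, a repeat-rich frame subunit, passed the threshold, with a fall of 0.56 (SE 0.14, limma adjusted p = 0.00404), and all 9 mutant embryos lay below the Control median. Cdc16 differed by -0.34 (SE 0.14, limma adjusted p = 0.0698) and Cdc27, which holds the coactivator, by -0.15 (SE 0.19, limma adjusted p = 0.574). Cdc26, the small partner of Cdc16 with 85 residues, differed by 0.38 (SE 0.23, limma adjusted p = 0.243). Its mutant range, from 10.18 to 12.03, covered most of its Control range, from 10.11 to 11.65. The count of 1 in 4 stands beside the 26.6% of all genes.

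Small protein and short transcript go together only in part within the complex. Across all genes with a known length, the median difference was 1.28 in the tenth with the shortest transcripts (58 to 768 nt), 0.65 in the next (769 to 1242 nt), and between 0.07 and -0.31 in the rest. Anapc13 (411 nt), Anapc15 (650 nt) and Cdc26 (654 nt) fall in the shortest class. There Anapc13 lay above 94.5% of the class, but Anapc15 above only 35.4% and Cdc26 above 29.1%. Anapc11 (962 nt) lay above 86.8% of the second class. Lengths are those of the shortest principal transcript, which 10982 of 13357 genes have, and of the longest transcript for the rest. Which isoform the embryos used was not analysed here.

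Anapc10 and Anapc16 code for small proteins from transcripts of ordinary length. Only 19.9% of the 2801 nt of Anapc10 and 18.0% of the 1852 nt of Anapc16 are coding, the rest being untranslated. Anapc10 shares its length class (2525 to 2987 nt, median difference -0.25) with Anapc5 (2760 nt) and Anapc7 (2751 nt). It lay above 97.8% of that class, whereas Anapc5 lay above 19.7% and Anapc7 above 18.3%. In each embryo Anapc10 minus Anapc5, a pair of nearly equal length chosen after the values were seen, was -1.13 ± 1.23 in Control (SD, n = 10) and 1.30 ± 0.61 in mutant embryos (SD, n = 9), with overlap. Anapc10 and Anapc5 differ in base composition, with 39.7% and 51.5% GC. Anapc16 lay above 91.0% of its class (1653 to 2067 nt, median -0.18).

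From each library a smooth trend on transcript length, then on GC content, was taken off, an alternative chosen with earlier results of these data known. It is called the trend on principal lengths below, though genes without a principal transcript enter it by their longest one. Anapc10 then differed by 1.59, Anapc16 by 0.92, Anapc13 by 1.28 and Anapc11 by 1.08, while Anapc15 was at -0.45. Anapc13 still did not overlap between the groups, as 1.62% of the genes with a length did not in that direction, and no large subunit was separated in the lower direction (0.532% of genes). The large subunits differed by -0.17 (Anapc4) to -0.56 (Anapc5). After this step 4 of 5 small subunits passed in the higher direction (10.6% of genes) and 3 of 5 large ones in the lower direction (10.2% of genes). Cdc26 turned to -0.87 (limma adjusted p = 2.10e-04; -0.82 with the longest transcripts), and Cdc23 stayed lower, at -0.43 (limma adjusted p = 0.0113).

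The value for Anapc13 depended on the transcript taken for its length and on the genes the trend was fitted on. With the trend on the longest transcript of each gene (727 nt for Anapc13) the difference was 1.94. With the trend fitted on principal transcripts alone, at the same 411 nt as in the trend on principal lengths, it was 0.45. In that last fit 3 small subunits passed in the higher direction, Anapc13 not among them, and 3 large ones in the lower direction. Anapc15 passed in the lower direction. Of 13357 genes 1229 passed in the higher and 1593 in the lower direction. Anapc15, whose longest transcript has 3103 nt, differed by 0.83 with the longest transcripts and by -0.83 with the trend fitted on principal transcripts alone, so its direction rests on the length taken. The part of length in its difference was not otherwise tested. Anapc10 differed by at least 1.29 in each of 11 alternatives and by at least 1.47 whichever library was left out.

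**Figure D2:**
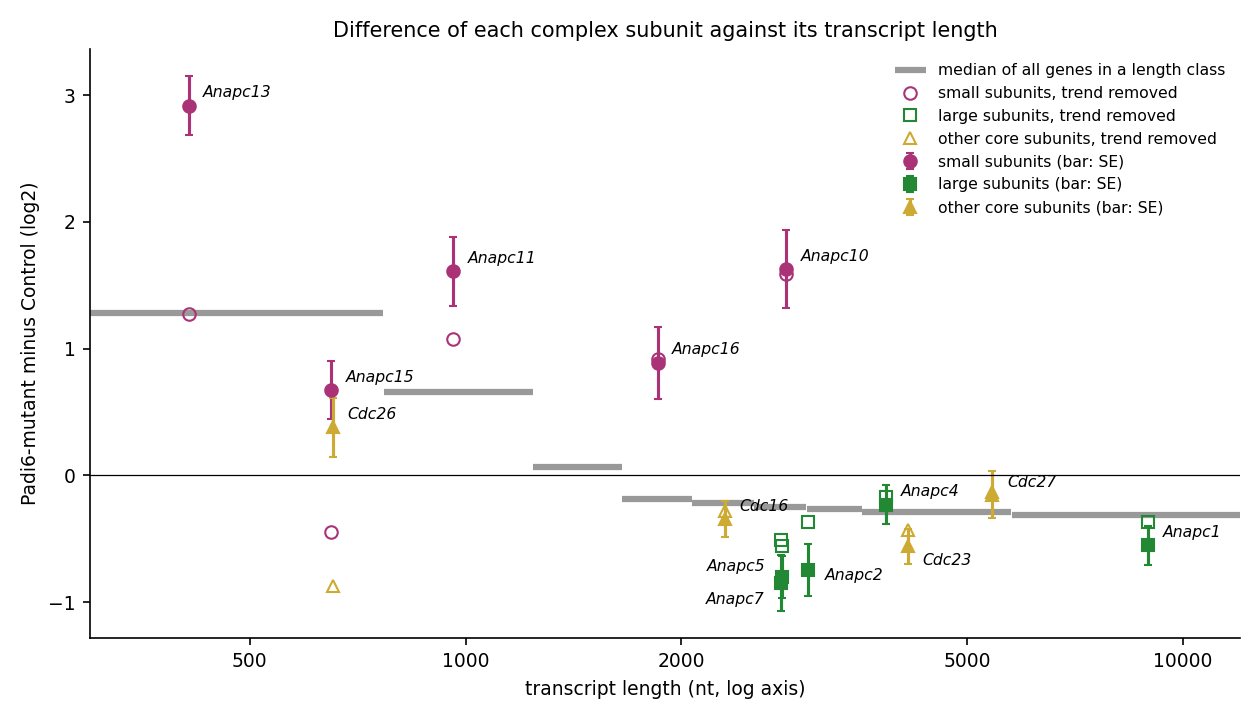
Difference between Padi6-mutant and Control blastocysts (log2) of the 14 subunits against transcript length (nt, log axis); filled symbols are the deposited values with their SE, open symbols the values after the length and GC trend was removed, grey bars the median of all genes in each length class. Anapc10 stands at 1.63 beside Anapc5 at -0.80 and Anapc7 at -0.85 at nearly the same length, and Anapc15 and Cdc26 fall below 0 once the trend on these lengths is removed (with the longest transcripts Anapc15 is at 0.83 and Cdc26 at -0.82).

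Per embryo, the mean of the 5 small subunits was 10.1 ± 0.63 in Control and 11.6 ± 0.38 in mutant embryos, and the mean of the 5 large ones 12.3 ± 0.28 and 11.7 ± 0.09. The mean of the small minus the mean of the large subunits was lowest at -3.65, -2.38 in the median and highest at -0.73 in Control, and -0.55, -0.20 and 0.47 in mutant embryos. It differed by 2.18, and the groups did not overlap, by a margin of 0.18. This direction is fixed by the choice of the genes. Without Anapc13 the difference was 1.83 and the groups overlapped. With the length and GC trend removed it was 1.28, with 0.08 between the nearest embryos.

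The Control embryos were more unlike each other than the mutant ones, with an SD of 0.89 against 0.38. Control 9 (-0.73) and Control 5 (-1.02) came closest to the mutants. These are also the only Control libraries whose length relation was below 0, at -0.11 and -0.12, within the mutant range of -0.42 to -0.09. Control 1 was lowest at -3.65 and had the highest length relation, 0.40. With the length and GC trend removed, Control 1 was still the lowest Control, at -2.68, and Control 9 and Control 5 the highest, at -0.95 and -1.21. The measure of the complex thus moved with the length relation of the library within the Control group too, and the part of the one in the other was not tested. The 4 mutant libraries with over 400 genes at 0 did not stand apart: their values ran from -0.51 to 0.47, and without them the difference was 2.25.

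**Figure D3:**
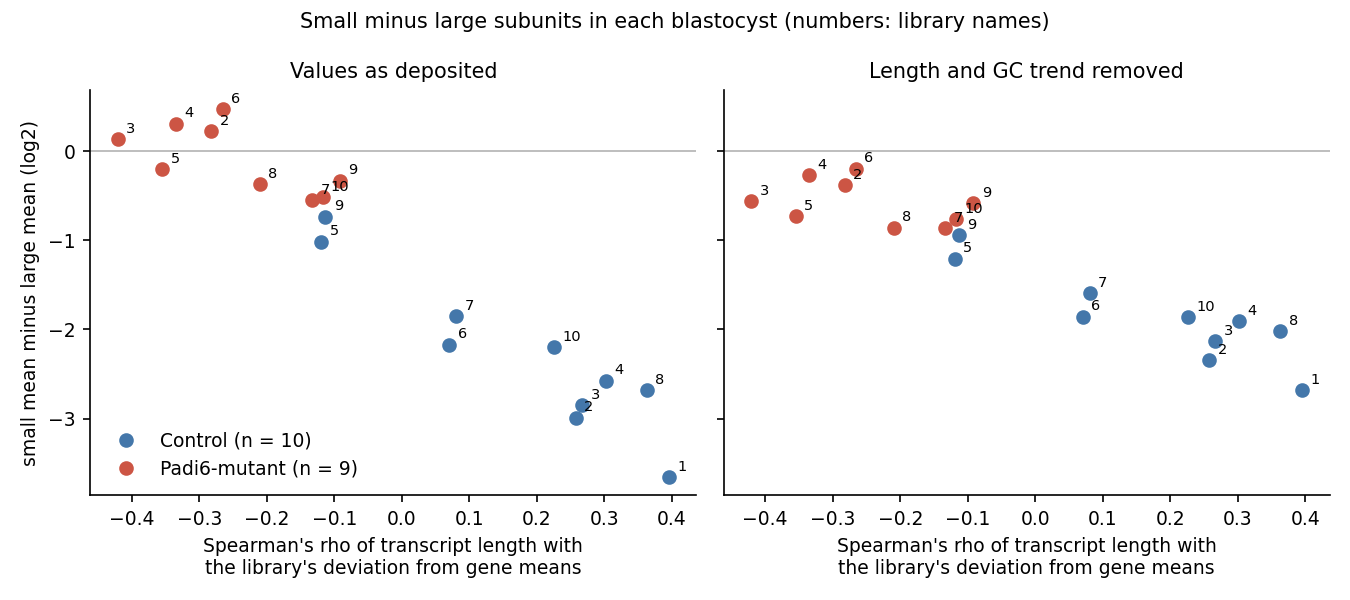
Mean of the 5 small minus mean of the 5 large subunits (log2) in each blastocyst against Spearman's rho of transcript length with that library's deviation from the gene means; left as deposited, right with the length and GC trend removed, and numbers name the libraries. Control 5 and Control 9 lie at -1.02 and -0.73, nearest the mutants, and the difference between the group means is 2.18 on the left and 1.28 on the right.

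Levels of different genes were compared per kb of transcript, as log2 of the scaled count per kb. In Control embryos Anapc5 was highest at 12.3 ± 0.42 (SD, n = 10) and stood above Cdc26 (11.3 ± 0.50) by more than the larger SD of the pair. From Cdc26 through Anapc10 (11.2 ± 0.85), Cdc16, Anapc2, Cdc23, Anapc7, Anapc15, Anapc11, Cdc27, Anapc1, Anapc4 and Anapc13 (9.50 ± 0.51) to Anapc16 (9.19 ± 0.73), no neighbours differed by more than their spread.

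In mutant embryos the order was led by Anapc10 (12.8 ± 0.61, SD, n = 9) and Anapc13 (12.4 ± 0.44). Anapc13 moved from place 13 to place 2 of 14. Dividing by transcript length does not take off the length shift between the libraries, so these places are not corrected for it. The Anapc13 difference of 2.92 was 1.28 with the length and GC trend removed and 0.45 with the trend fitted on principal transcripts alone. Cdc26 (11.7 ± 0.56), Anapc11 (11.6 ± 0.19) and Anapc5 (11.5 ± 0.26) followed, and the remaining 9 ran from Anapc15 (10.7 ± 0.37) down to Anapc1 (9.03 ± 0.31). Only the steps after Anapc13 and after Anapc5 exceeded the larger SD of the neighbours. With the longest annotated transcript in place of the shortest principal one, the mutant levels were 12.1 for Anapc10, 11.6 for Anapc13 9.84 for Anapc11 and 8.43 for Anapc15, the lowest of the 14. In Control Anapc15 was lowest too, at 7.76. The places of Anapc11 and Anapc15 thus rest on the isoform taken.

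**Figure D4:**
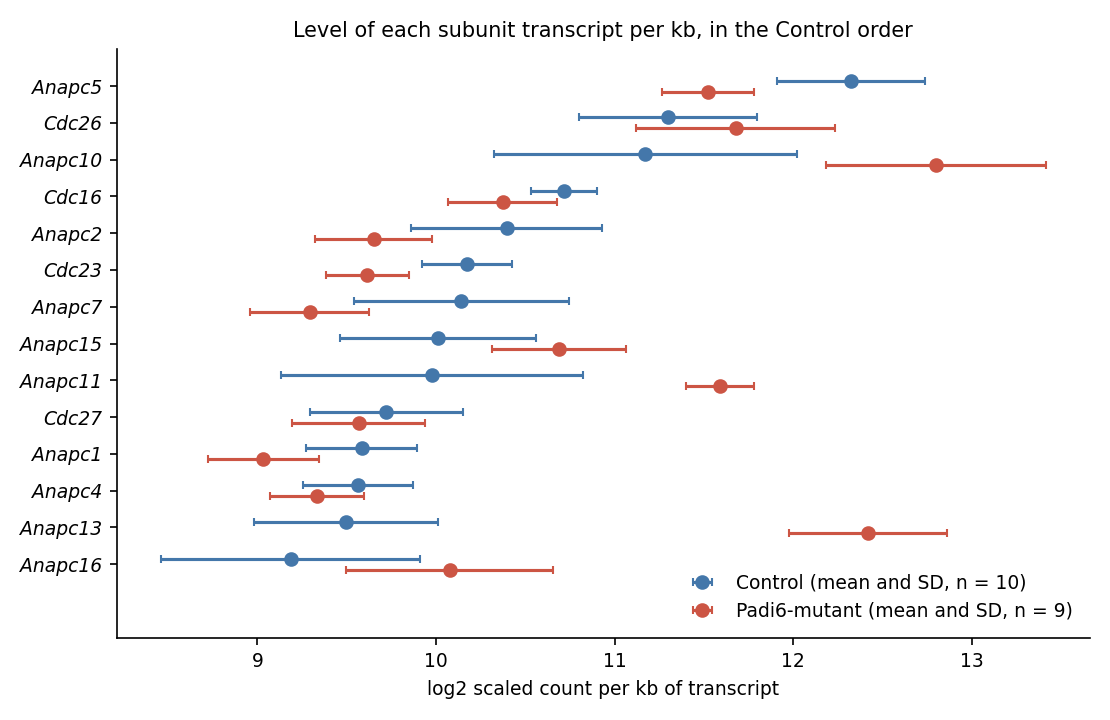
Level of the 14 subunit transcripts per kb (log2 scaled count per kb of transcript), mean and SD over 10 Control and 9 Padi6-mutant blastocysts, in the Control order from the top. Anapc5 leads in Control at 12.3, and Anapc10 (12.8) and Anapc13 (12.4) lead in the mutants. These levels are not corrected for the length shift between the libraries.

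The promoters of 3 members are shown because their genes mark the ends of the pattern: Anapc13 with the largest difference, and Anapc10 and Anapc5, which have transcripts of like length and opposite differences. The windows run 5′ to 3′ on the strand of the gene, from 250 bases before to 50 after the RefSeq start, in build GRCm38.p6, at chr9:102626046-102626345 (plus strand), chr8:79711513-79711812 (plus strand) and chr5:122821293-122821592 (minus strand). Capitals mark matches, on either strand, to 6 short motifs: ETS (CCGGAAG), YY1 (AAGATGG), NRF1 (GCGCATG), the CCAAT box, the cell-cycle element CHR (TTTGAA) and the TATA box (TATAAA).
Anapc13: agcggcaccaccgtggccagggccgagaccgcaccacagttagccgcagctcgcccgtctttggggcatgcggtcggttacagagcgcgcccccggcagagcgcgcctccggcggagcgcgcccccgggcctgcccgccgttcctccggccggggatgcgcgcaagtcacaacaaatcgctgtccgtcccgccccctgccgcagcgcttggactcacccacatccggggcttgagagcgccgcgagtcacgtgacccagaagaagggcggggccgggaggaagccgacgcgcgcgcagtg
Anapc10: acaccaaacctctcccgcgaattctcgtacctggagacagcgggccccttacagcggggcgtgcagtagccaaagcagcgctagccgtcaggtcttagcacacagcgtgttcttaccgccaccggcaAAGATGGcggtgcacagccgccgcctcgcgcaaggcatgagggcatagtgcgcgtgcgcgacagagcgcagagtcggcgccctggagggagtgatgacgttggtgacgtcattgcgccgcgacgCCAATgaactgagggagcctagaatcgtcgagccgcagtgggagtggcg
Anapc5: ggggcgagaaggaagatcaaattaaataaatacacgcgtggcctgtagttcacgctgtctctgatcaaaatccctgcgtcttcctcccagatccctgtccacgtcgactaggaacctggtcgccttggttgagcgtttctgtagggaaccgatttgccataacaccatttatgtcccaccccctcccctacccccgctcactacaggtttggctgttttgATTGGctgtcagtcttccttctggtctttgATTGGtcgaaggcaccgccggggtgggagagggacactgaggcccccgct
The Anapc13 window holds none of the 6 motifs, the Anapc10 window holds one YY1 match and one CCAAT box, and the Anapc5 window holds a pair of CCAAT boxes in reverse. All 10 members had a window, 13 in all, of 32851 in the table. The ETS letters were in a window of 3 small (Anapc11, Anapc15 and Anapc16) and 3 large subunits (Anapc2, Anapc4 and Anapc7), and in 8.86% of all windows. YY1 was in windows of Anapc10, Anapc1 and Anapc7 (6.34% of all windows), CCAAT in those of Anapc10, Anapc11 and Anapc5 (37.4%), and CHR in those of Anapc16 and Anapc7 (17.9%). NRF1 was in that of Anapc16 (3.91%) and the TATA letters in one of Anapc11 (13.6%). No motif of the 6 was in all small subunits and no large one. The median GC content was 63.5% in the 8 small-subunit windows, 54.7% in the 5 large-subunit windows and 52.7% in all windows.

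Several subunits share their place in the genome with a gene on the other strand. Among the large subunits Anapc7 does, with the unlisted pseudogene Gm15846, which does not reach its exons. The libraries were made with Nextera XT, which does not mark strand, so reads of such a pair cannot be told apart where exons overlap. Anapc13 overlaps Cep63, which differed by -0.15 (SE 0.20), and Anapc16 overlaps Ascc1, which differed by -0.06 (SE 0.18). In Control and mutant embryos Cep63 had means of 10.2 and 10.0, against 8.22 and 11.1 for Anapc13. Ascc1 had means of 10.2 and 10.1, against 10.1 and 11.0 for Anapc16. Neither neighbour passed the threshold (limma adjusted p = 0.616 and 0.823). The part of their reads in the values of the subunits was not tested. Anapc15 overlaps Folr1, a folate receptor, which was higher in the mutants by 1.00 (SE 0.25, limma adjusted p = 0.00456) and far more abundant, with a mean of 13.9 against 10.1 for Anapc15 in mutant embryos. It also overlaps Tomt, which was lower by 1.65 (SE 0.56, limma adjusted p = 0.0325). Anapc10 has no listed gene over its exons. The antisense Gm45435 within its span differed by 0.80 (SE 0.30) from a Control mean of 7.51. Of the other core subunits, Cdc23 overlaps Kif20a, which differed by -0.11 (SE 0.17). In mutant embryos Kif20a had a mean of 12.4 against 11.7 for Cdc23. Cdc26 overlaps Slc31a1, which differed by 0.003 (SE 0.15).

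Among the genes that work with the complex, the E2 enzymes Ube2c and Ube2s and securin rose in the deposited values, and separase and the checkpoint gene Mad1l1 fell. Of 5 coactivators and E2 enzymes, Ube2c and Ube2s, the enzymes that start and lengthen the ubiquitin chain, rose and none fell (14.6% and 12% of all genes rose and fell). Ube2c was at 12.2 in the median Control and 13.3 in the median mutant embryo, higher by 0.96 (SE 0.27, limma adjusted p = 0.0110). With the trend on principal lengths removed its difference was 0.22, and with that on the longest transcripts 1.25 (limma adjusted p = 0.00446). Ube2s was at 10.7 and 11.4, higher by 0.72 (SE 0.22, limma adjusted p = 0.0165), by 0.59 with the trend on principal lengths removed (limma adjusted p = 0.0334) and by 0.47 with that on the longest (limma adjusted p = 0.0771). All 9 mutant embryos were above the Control median for both enzymes, whose transcripts are 967 and 1238 nt long. The coactivators Cdc20 and Fzr1 differed by -0.46 (SE 0.27) and -0.44 (SE 0.30) and did not pass (both named after their values were seen). The median over the list was -0.36, beside -0.10 for all genes.

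Of 9 measured inhibitors and spindle checkpoint genes none rose and 1 fell, beside 14.6% and 12% of all genes. Mad1l1, which anchors the checkpoint at kinetochores, fell by 0.77 (SE 0.16, limma adjusted p = 0.00131). All 9 mutant embryos were below its Control median. The other 8 did not pass, and the list median was -0.21. With the trend on principal or on longest lengths removed Mad1l1 differed by -0.36 or -0.38 (limma adjusted p = 0.0651 and 0.0567).

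Of 20 substrates, Pttg1 rose, 4 fell and 15 did not pass, with a list median of -0.16; of all genes 14.6% rose and 12% fell. Pttg1, or securin, which holds separase in check, ran from 9.67 through 11.4 to 12.7 in Control and from 11.3 through 12.9 to 13.6 in mutant embryos. It was higher by 1.29 (SE 0.33, limma adjusted p = 0.00556), but its transcript of 696 nt is in the shortest class, where the median difference was 1.28. With the trend on principal lengths removed its difference was 0.04, and with that on the longest transcripts 1.06 (limma adjusted p = 0.0107). Skp2, a substrate receptor of another ubiquitin ligase, fell by 0.72 (SE 0.22, limma adjusted p = 0.0210), Cdc6, which licenses replication origins, by 0.67 (SE 0.20, limma adjusted p = 0.0146), and the kinesin Kif22 by 0.65 (SE 0.20, limma adjusted p = 0.0212). With the trend on principal lengths removed Cdc6 (-0.55, limma adjusted p = 0.0368) and Skp2 (-0.65, limma adjusted p = 0.0312) passed, and with that on the longest neither did (-0.46 and -0.62, limma adjusted p = 0.0991 and 0.0544). Kif22 did not pass with the trend on principal lengths removed (-0.41, limma adjusted p = 0.0632) but did with that on the longest (-0.45, limma adjusted p = 0.0426). The fourth, the centrosome kinase Nek2, named after its value was seen, fell by 0.55 (limma adjusted p = 0.0440). With the trend on principal lengths removed it differed by -0.34 (limma adjusted p = 0.157). In that setting 2 of the 20 were lower, where 10.2% of genes were. Without the 4 mutant libraries with over 400 genes at 0, 1 of the 20 fell (Skp2), where 6.64% of all genes did. The mitotic cyclin Ccnb1 differed by -0.09 (SE 0.15) and Ccna2 by -0.12 (SE 0.17), both also named after their values were seen.

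Of 6 separase and cohesin genes 1 passed, Espl1 or separase itself, beside 26.6% of all genes. It ran from 11.2 through 11.9 to 12.6 in Control and from 10.3 through 10.9 to 11.8 in mutant embryos, and fell by 1.05 (SE 0.21, limma adjusted p = 8.48e-04). All 9 mutant embryos were below the Control median. Securin and separase, the pair on which the complex acts at anaphase, thus differed in opposite directions in the deposited values. With the trend on principal lengths removed they differed by 0.04 and -0.57 (limma adjusted p = 0.921 and 0.0590), and with that on the longest by 1.06 and -0.57 (limma adjusted p = 0.0107 and 0.0563).

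**Figure D5:**
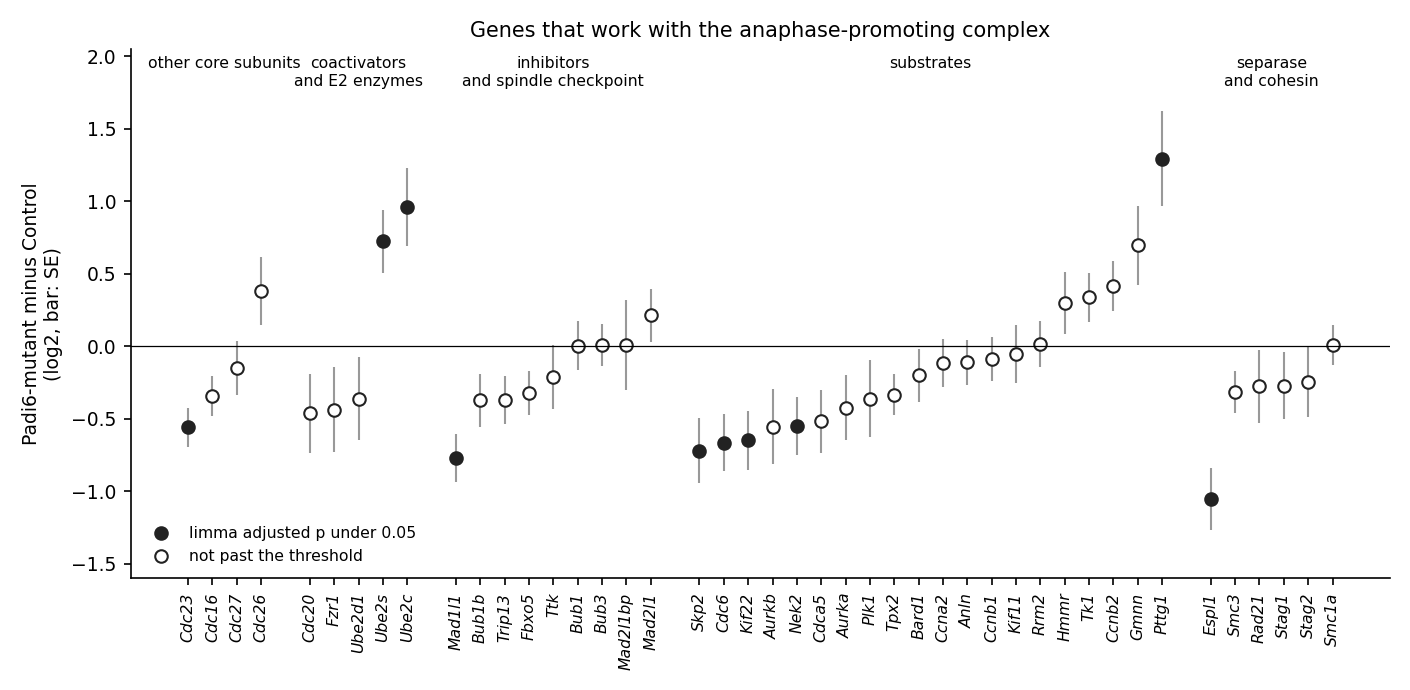
Difference between Padi6-mutant and Control blastocysts (log2, bar: SE) of genes that belong to or work with the complex, by list; filled points passed a limma adjusted p of 0.05. Ube2c (0.96), Ube2s (0.72) and Pttg1 (1.29) rose as deposited; with the trend on principal lengths removed only Ube2s of these passed, with that on the longest only Ube2c and Pttg1. Espl1 is lowest, at -1.05.

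Within the groups, the small subunits varied together from embryo to embryo. With each group's mean taken off, Pearson's r between pairs of small subunits over 19 libraries had a median of 0.74, and all 10 pairs were above 0. Pairs of large subunits had a median of 0.01, with 5 of 10 above 0. Between small and large subunits the median was -0.38, with 1 of 25 pairs above 0. It was -0.60 among Control embryos alone and 0.05 among mutant embryos alone. All points share libraries and their length relation, so these are descriptions.

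The genes outside the complex whose level most resembled the mean of the small subunits, among 10373 searched in the same way, were Cks1b (r = 0.97), a subunit of cyclin-dependent kinases, Bcas2 (r = 0.96), a splicing factor, and Pop5 (r = 0.96), a subunit of RNase P. Their transcripts are 849, 1467 and 1025 nt long. Cks1b differed by 1.97 (SE 0.34), Pop5 by 1.60 (SE 0.25) and Bcas2 by 0.78 (SE 0.21) in the direction of the small subunits. Nearest to the mean of the large subunits were Eif4g1 (r = 0.92, 5444 nt), a translation initiation scaffold, Ercc3 (r = 0.89, 2708 nt), a DNA helicase, and Cmtm6 (r = 0.89, 3383 nt). Eif4g1 differed by -0.77 (SE 0.14), Cmtm6 by -0.82 (SE 0.24) and Ercc3 by -0.31 (SE 0.21).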

How the data were processed

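The submitters' processing notes name Trim Galore 0.4.4 for trimming, HISAT2 2.1.0 for alignment, and GRCm39 and mm39 as builds; how reads were counted, and against which annotation, is not given in the sources used here. Per the labels, RNA was caught on oligo-dT beads, copied by template switching, amplified by PCR and made into Nextera XT libraries, which were pooled as 20, of which 19 were analysed here. The authors deposited log2 values of counts plus 1, each library scaled to 1 upper quartile (2322); taken back, they lay within 1.96e-07 of whole numbers and summed to 36.3 to 53.1 M per library. The scaling hides the depth, which limits low genes most. Every gene was above 0 in at least 9 libraries.

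Groups were compared with limma 3.58.1 in R 4.3.3 (lmFit, eBayes with a trend, two-sided, Benjamini-Hochberg over 14173 genes, threshold 0.05), after the script was tested on simulated data. SE is limma's. Library measures were compared over all 92378 arrangements of the embryos. Transcript lengths came by symbol from GENCODE release M 21, on an older build, for 13357 genes (94.2%); a lowess trend (span 0.3) on length and then GC content was removed as an alternative. Promoter windows came from RefSeq. The members and lists were chosen with earlier results of these data known. Named genes were the 10 members, 4 other core subunits, up to 4 genes past the threshold with the smallest adjusted p per other list, and the 3 genes most like the mean of the small or of the large subunits; others are said to be named later.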

Additional observations from a re-analysis of the deposited data

Results flagged for a closer look

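Of 62 groups of embryos looked at for a value far from the rest, 2 had one, where chance alone gives about 1 in 20. Anapc16 was highest in Padi6-mutant 6, at 12.27, and the gap to the next embryo was 0.552 of the group's range. This embryo also had the most genes at 0 (596); without it the difference of Anapc16 was 0.73. Mad1l1 was highest in Padi6-mutant 10, at 11.24, with a gap of 0.523 of the range.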

How the results depend on the processing

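Of 14173 genes 3765 changed (2068 higher, 1697 lower), 1807 with the number of genes at 0 as a covariate (1308 and 499), 2528 with a replicate block on the library numbers (1541 and 987), and 3035 to 4288 when 1 library was left out. Library quality weights gave 5349, and the trend fitted on principal transcripts alone 1229 higher and 1593 lower. The small minus large difference (2.18; 2.02 with the replicate block; 2.02 to 2.35 without 1 library) moved to 1.28 with the length and GC trend removed and to 0.983 with the trend fitted on principal transcripts alone. Direction turned for Anapc15 (-0.45 with the trend removed, -0.83 fitted on principal transcripts alone, but 0.83 with longest transcripts), Cdc26 (-0.87, -1.27 and -0.82) and Pttg1 (-0.32 fitted on principal transcripts alone, but 1.06 with longest transcripts). The last 2 forms of the trend were chosen after seeing the data.

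Of the members, which this contrast chose, 5 of 10 were past the threshold with the replicate block and 4 with the covariate, where 2528 and 1807 of all genes were. Skp2 lost its call with the replicate block (-0.70, limma adjusted p = 0.0635) and with the covariate (-0.80, 0.0645), Cdc6 (-0.45, 0.226) and Kif22 (-0.39, 0.310) with the covariate, and Ube2s too (0.78, 0.0612). The labels do not say whether the numbers pair the embryos. Of 9 pairs of libraries with the same number 1 had r over 0.1, and 1 mutant library correlated best with its own number. Low values of r cannot exclude a shared litter or handling.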
